A study of Mus musculus with 12 samples.

Results

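The endogenous interferon genes of B16 cells, an established mouse melanoma line, were followed by RNA sequencing in Adar knockout and control cells with and without added IFNb. The genes are those that encode the interferons themselves: the type I genes Ifnb1, Ifna1, Ifna2, Ifna4, Ifna5, Ifne and Ifnk, the type II gene Ifng, and the type III genes Il28a and Il28b (now named Ifnl2 and Ifnl3). They were chosen by name, and all 10 are among the 23336 gene symbols of the count table. Adar encodes an enzyme that converts adenosine to inosine in double-stranded RNA.

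There were 4 groups of 3 libraries: Adar KO cells with IFNb, Adar KO cells with vehicle, control cells with IFNb and control cells with vehicle. Adar KO cells had received Adar sgRNA 1 and control cells the non-targeting sgRNA 5, in both cases with transiently expressed Cas9 followed by subcloning. IFNb was given at 1000 U/mL for 36 h, and the vehicle was PBS with BSA. With 1 guide and subcloned cells per genotype, the effect of genotype and that of subcloning cannot be told apart. The labels do not state whether replicate libraries are separate cultures, and p-values then cover only their spread, possibly technical. In bulk RNA, fewer cells that express a gene and less RNA per cell cannot be told apart.

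Interferons are secreted cytokines that most cells do not make at rest. A cell makes IFN-beta when sensors such as RIG-I (Ddx58) and MDA5 (Ifih1) bind double-stranded RNA and signal through MAVS and the kinase TBK1 to IRF3 and NF-kB, which act together with ATF2 and c-Jun on the Ifnb1 promoter. Type I interferons then act through IFNAR1 and IFNAR2, and most of the IFN-alpha genes follow later through IRF7, which is itself interferon-induced. The added IFNb is a protein, so that reads of Ifnb1 come from the cells' own gene.

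Libraries held 5375649 to 7153480 counts. Levels are given as CPM, in which each count is scaled by its library's TMM-adjusted total. The floor of a group was set at 3 counts over its libraries, or 0.157 to 0.173 CPM, and the floors and the counting intervals given with them cover counting error only. Adar itself was counted at 408 ± 21.2 CPM in Adar KO cells with IFNb, 59.5 ± 5.26 CPM in Adar KO cells with vehicle, 384 ± 7.47 CPM in control cells with IFNb and 72.2 ± 2.05 CPM in control cells with vehicle (SD, n = 3 each). A short Cas9 deletion can leave the count of a whole gene unchanged, so these values do not check the knockout. All 8 melanocyte markers were counted, with sums of 15151 to 16166 CPM in Adar KO cells with IFNb, 18461 to 18676 CPM in Adar KO cells with vehicle, 18626 to 18914 CPM in control cells with IFNb and 18897 to 19791 CPM in control cells with vehicle. Of 21 leukocyte markers 9 were at 0 in every library, among them Cd3e, Ncr1 and the plasmacytoid dendritic cell gene Siglech, and Ptprc had 1 count in 12 libraries. Cd68, a macrophage gene, had 147 counts in all and Cd4 had 50. Cd68 was higher with IFNb than with vehicle in Adar KO cells (log2 fold change 0.91 ± 0.39, edgeR adjusted p = 0.0276) and in control cells (1.33 ± 0.41, adjusted p = 0.00215). The leukocyte list summed to 3.32 to 4.73 CPM in Adar KO cells with IFNb, 2.35 to 2.85 CPM in Adar KO cells with vehicle, 2.85 to 5.73 CPM in control cells with IFNb and 2.17 to 2.80 CPM in control cells with vehicle. Of 16 markers of epithelium, keratinocytes, fibroblasts and endothelium 5 were at 0, including Epcam and Krt14. The highest totals were those of the collagen gene Col1a2 (1002 counts), Pdgfrb (672) and Cdh1 (186). Col1a2 (1.09 ± 0.19, adjusted p = 4.35e-06) and Pdgfrb (0.53 ± 0.19, adjusted p = 0.00768) were higher in Adar KO cells with IFNb than in control cells with IFNb, and Cdh1 was not called (-0.60 ± 0.43, adjusted p = 0.191). Pdgfra, with 11 against 29 counts, was lower (-1.31 ± 0.56, adjusted p = 0.0197). The 16 markers summed to 29.8 to 37.0 CPM in Adar KO cells with IFNb, 31.7 to 35.8 CPM in Adar KO cells with vehicle, 18.0 to 20.3 CPM in control cells with IFNb and 23.7 to 33.2 CPM in control cells with vehicle. The part of these cell type lists in the results was not tested.

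Ifnb1, which encodes IFN-beta, was the interferon gene with the highest level, and its reads were found in a single group. It had 30, 33 and 34 counts in the 3 Adar KO libraries with IFNb, and 0 counts in each of the 9 other libraries. The 97 counts of the Adar KO libraries with IFNb have an exact Poisson 95% interval of 78.7 to 118. They correspond to 5.68, 4.96 and 5.38 CPM in the 3 libraries, with a mean of 5.34 ± 0.362 CPM (SD, n = 3). The 3 Adar KO libraries with IFNb lay close together.

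The floors stood at 0.161 CPM in Adar KO cells with vehicle, 0.157 CPM in control cells with IFNb and 0.173 CPM in control cells with vehicle. The exact Poisson 95% interval of 0 counts of Ifnb1 reached further, to 0.20, 0.19 and 0.21 CPM in the same order. The mean of Ifnb1 in Adar KO cells with IFNb was 33.3-fold above the floor of Adar KO cells with vehicle. It was 33.9-fold above the floor of control cells with IFNb. These ratios leave out the counting error of the mean, whose interval starts at 4.31 CPM, and would be smaller against the interval limits of 0 counts. Both differences passed edgeR's quasi-likelihood test over all 11561 genes tested, with Benjamini-Hochberg adjusted p = 5.93e-17 against Adar KO cells with vehicle and 4.21e-17 against control cells with IFNb. In these comparisons 72.3% and 72.6% of all genes tested were called at an adjusted p under 0.05, so that a call alone is common here. Ifnb1 entered the test only through the group in which it was counted. An exact two-sided permutation test of the CPM values gave p = 0.1 for each difference, the smallest value that 3 libraries against 3 can give.

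Neither IFNb alone nor the Adar knockout alone was accompanied by Ifnb1 reads. Control cells with IFNb and control cells with vehicle were both at 0, as were Adar KO cells with vehicle. For Ifnb1, neither the IFNb comparison of control cells nor the genotype comparison under vehicle could therefore give a call. Of all genes tested, 53.0% were called between control cells with IFNb and control cells with vehicle, and 6.51% between Adar KO cells with vehicle and control cells with vehicle. The excess of the IFNb response of Adar KO cells over that of control cells could not be estimated by edgeR with 3 groups at 0 (adjusted p = 0.9998), a test that called 59.3% of all genes. The outcome depended on the method, as limma-voom (adjusted p = 8.19e-08) and the DESeq2 Wald test (adjusted p = 0.00093) called this excess. Ifnb1 entered these tests too only through the group in which it was counted.

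**Figure D1:**
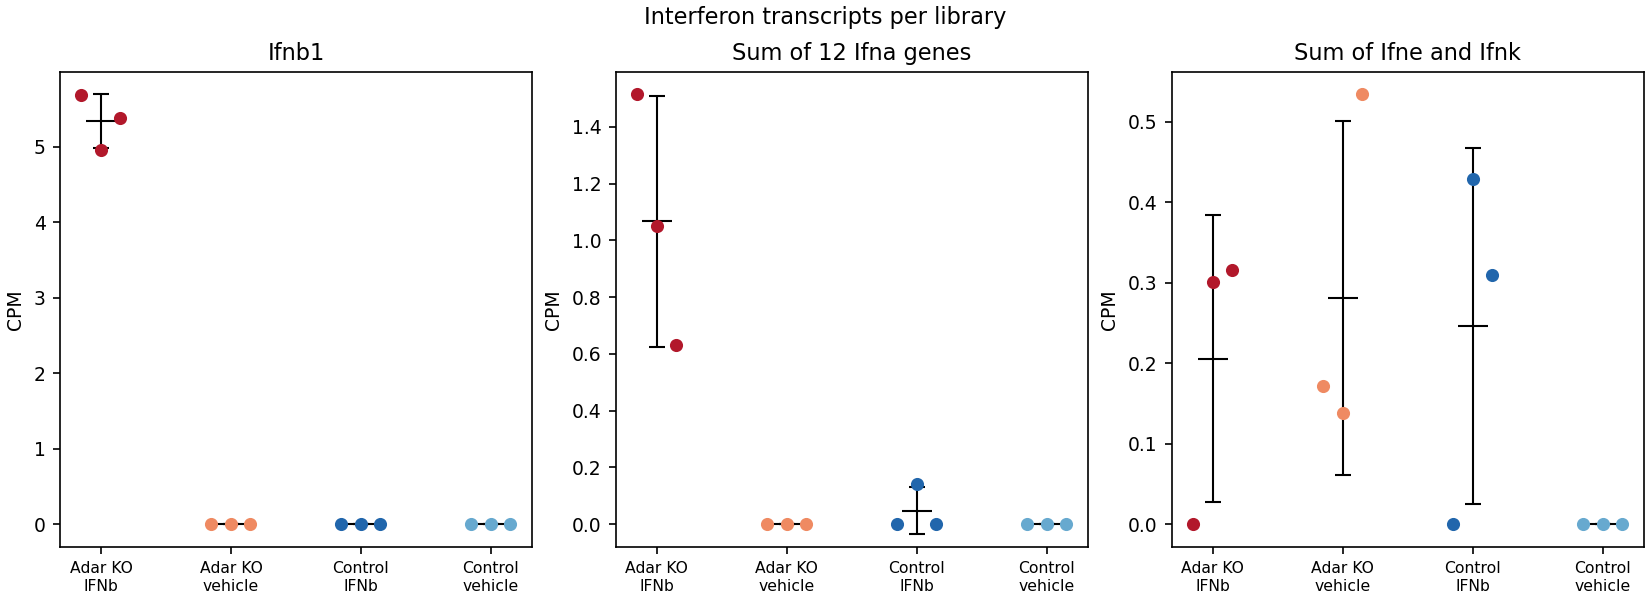
Normalised counts (CPM) of Ifnb1, of the 12 IFN-alpha genes together, and of Ifne and Ifnk together in the 4 groups; each point is a library, with the mean and SD (n = 3) as black bars. Ifnb1 lies at 4.96 to 5.68 CPM in Adar KO libraries with IFNb and at 0 in the 9 others, the IFN-alpha sum averages 1.07 CPM in the same libraries, and Ifne and Ifnk overlap between the first 3 groups.

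Per kilobase of exon, Ifnb1 reached 7.12 CPM in Adar KO cells with IFNb (interval 5.75 to 8.64). Of the 15791 genes with counts in that group and an exon length in GENCODE M21, 64.7% had a lower level per kilobase, and the median was 3.48 CPM per kilobase. Ifnb1 is a gene of a single exon on chromosome 4 of GRCm38, from 88522025 to 88522774 on the minus strand, and GENCODE M21 places no other gene over it. All 37-base words of its transcript, the length of the sequenced reads, are absent from every other annotated transcript.

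Interferon genes are known to be switched on through short elements just before their start sites. The promoters of Ifnb1, Ifna4 and Ifna13, the 3 genes with most reads in Adar KO cells with IFNb, are shown beside that of Ifna2. The RefSeq start sites on GRCm38.p6 were used, with the 150 bases before each start, written 5′ to 3′ on the strand of the gene. The windows are chr4:88522795-88522944 (minus) for Ifnb1, chr4:88841666-88841815 (plus) for Ifna4, chr4:88644460-88644609 (minus) for Ifna13 and chr4:88683780-88683929 (minus) for Ifna2, which had no counts in any library. Capitals mark every match, on either strand, to 1 of 3 motifs: the NF-kB type motif (GGGA, any 2 bases, TTCC), the interferon-response type motif (GAAA, any 2 bases, GAAA) and TATAAA. None of the matches overlap.
Ifnb1: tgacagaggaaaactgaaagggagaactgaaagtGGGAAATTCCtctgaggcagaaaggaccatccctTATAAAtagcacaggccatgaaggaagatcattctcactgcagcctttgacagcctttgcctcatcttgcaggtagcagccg
Ifna4: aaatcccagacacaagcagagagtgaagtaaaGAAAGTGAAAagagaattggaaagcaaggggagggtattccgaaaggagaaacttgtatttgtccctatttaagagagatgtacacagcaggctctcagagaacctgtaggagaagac
Ifna13: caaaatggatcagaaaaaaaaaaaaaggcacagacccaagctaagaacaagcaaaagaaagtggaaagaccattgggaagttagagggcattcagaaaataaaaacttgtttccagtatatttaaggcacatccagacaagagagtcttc
Ifna2: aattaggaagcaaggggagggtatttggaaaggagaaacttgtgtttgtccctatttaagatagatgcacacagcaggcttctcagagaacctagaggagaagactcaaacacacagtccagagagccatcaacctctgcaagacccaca

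The Ifnb1 window held 1 NF-kB type match, with its first base at -116 relative to the RefSeq start site, and 1 TATAAA, with its first base at -82. These positions depend on the start site used, and GENCODE M21 places the start of Ifnb1 elsewhere, at 88522774. The NF-kB type motif was present in 0.788% of the 32851 RefSeq mouse promoter windows of the same length, and TATAAA in 7.57%. The Ifna4 window held 1 interferon-response type match at -118, a motif found in 1.59% of the windows. The Ifna13 and Ifna2 windows held none of these motifs. GENCODE M21 places the start of Ifna2 at 88683912, so most of the Ifna2 window lies inside the gene as placed there. Its lack of a match therefore does not describe the bases before that start. The interferon-response type motif was also found in the windows of Ifna6, Ifna9, Ifna11, Ifna12 and Ifnab, all of which were at 0 counts in every library. The Ifnab window likewise overlaps its gene in GENCODE M21. The interferon-response type motif allows only 2 bases between GAAA and GAAA. Pairs of GAAA with a wider gap were not searched and stand in lower case. They are gaaaactgaaa in the Ifnb1 window, gaaagtggaaa in that of Ifna13 and gaaaggagaaa in those of Ifna4 and Ifna2. The lack of a marked match therefore does not show that a window lacks such an element. A match describes the letters of the window only.

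The IFN-alpha genes, which encode the large family of type I interferons that signal through the same receptor, were close to the limit of counting. Ifna4 had 3, 5 and 2 counts in Adar KO libraries with IFNb and 0 in each of the 9 other libraries, so that, like Ifnb1, it was counted in a single group. Its level was 0.545 ± 0.219 CPM (SD, n = 3) in Adar KO cells with IFNb. That mean was 3.40-fold above the floor of Adar KO cells with vehicle and 3.47-fold above that of control cells with IFNb (exact permutation p = 0.1 each). Its counting interval starts at 0.263 CPM, nearer to these floors. Per kilobase, Ifna4 stood at 0.972 CPM (interval 0.468 to 1.80), an interval that lies wholly below that of Ifnb1.

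Ifna13, an IFN-alpha gene outside the 10, had 4, 2 and 2 counts in Adar KO libraries with IFNb, none in Adar KO libraries with vehicle, 1 count in 1 control library with IFNb and none in control libraries with vehicle. Its level per kilobase was 0.559 CPM (interval 0.231 to 1.05) in Adar KO cells with IFNb, which overlaps that of Ifna4. Ifna5 had 1 count, in an Adar KO library with IFNb. Ifna1 and Ifna2 had none in any library, nor had the 7 other IFN-alpha genes Ifna6, Ifna7, Ifna9, Ifna11, Ifna12, Ifna14 and Ifnab.

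Over the 12 IFN-alpha genes of the table, 8, 7 and 4 counts were found in Adar KO libraries with IFNb, against 0, 0 and 0 in Adar KO libraries with vehicle, 0, 1 and 0 in control libraries with IFNb and none in control libraries with vehicle. The sum was 1.07 ± 0.441 CPM in Adar KO cells with IFNb, a mean 6.65-fold above the floor of Adar KO cells with vehicle (exact permutation p = 0.1). Against control cells with IFNb the exact permutation p was also 0.1, the smallest value possible here. None of these genes had enough counts for the test across all genes.

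IFN-alpha genes are near copies of one another, which limits how far reads can be assigned to one of them. The share of 37-base words that occur in no other annotated transcript was 88.8% for Ifna4, 82.6% for Ifna2 and 76.1% for Ifna13, but 32.2% for Ifna5 and 16.9% for Ifna1. How reads that match several copies were counted is not given in the sources used here, so the counts of Ifna1 and Ifna5 are uncertain.

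Ifne and Ifnk encode type I interferons known mainly from epithelia, IFN-epsilon in the reproductive tract and IFN-kappa in keratinocytes. Ifne had 1 count in an Adar KO library with IFNb and 1 in an Adar KO library with vehicle. Ifnk had 0, 2 and 1 counts in Adar KO libraries with IFNb, 1, 1 and 2 in Adar KO libraries with vehicle, 0, 3 and 2 in control libraries with IFNb and none in control libraries with vehicle. The first 3 groups overlapped, at 0.153 ± 0.150, 0.222 ± 0.118 and 0.246 ± 0.222 CPM in that order (SD, n = 3). Exact permutation tests of Ifnk gave p = 0.5 for Adar KO cells with IFNb against Adar KO cells with vehicle, 0.6 for Adar KO cells with IFNb against control cells with IFNb, and 0.4 for control cells with IFNb against control cells with vehicle. Adar KO cells with vehicle had 4 counts against 0 in control cells with vehicle (exact permutation p = 0.1, the smallest value possible here).

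Ifnk lies on chromosome 4 from 35152056 to 35154005 (plus strand), far from the other type I genes, within Mob3b on the opposite strand. Mob3b was counted at 4.18 ± 0.505 CPM in Adar KO cells with IFNb, 8.66 ± 1.16 CPM in Adar KO cells with vehicle, 14.5 ± 0.844 CPM in control cells with IFNb and 8.54 ± 1.18 CPM in control cells with vehicle. The libraries were directional, but the strand setting of the counting is not given in the sources used here, so a count of Ifnk cannot be told apart from a read of Mob3b. Ifnz, a further type I gene of the cluster with 17.4% words of its own, had 2 counts in Adar KO cells with IFNb, 4 in Adar KO cells with vehicle, 2 in control cells with IFNb and 0 in control cells with vehicle.

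No read was assigned to the type II or type III genes. Ifng, the interferon of T and NK cells, was at 0 in all 12 libraries. So were Il28a and Il28b, which encode IFN-lambda proteins that act mainly on epithelia. The floors were 0.157 to 0.173 CPM depending on the group, and the exact Poisson 95% intervals of 0 counts reached 0.19 to 0.21 CPM. These limits hold only for reads that can be assigned to the gene. Ifng lies on chromosome 10 from 118441046 to 118445892 (plus strand), over Gm49751 on the same strand, and 84.4% of its words are found in no other transcript. Il28a and Il28b lie on chromosome 7, from 28508836 to 28510455 (minus strand) and from 28522836 to 28524322 (plus strand). Both lie over Samd4b, which is on the minus strand like Il28a. Samd4b was counted at 123 ± 0.654 CPM in Adar KO cells with IFNb and 90.6 ± 1.41 CPM with vehicle. In control cells it was at 95.5 ± 2.38 CPM with IFNb and 97.6 ± 1.02 CPM with vehicle. Il28a and Il28b share much sequence, with 60.4% of the words of Il28a and 52.2% of those of Il28b found in no other transcript. How reads that match several genes were handled is not given. Reads left unassigned for this reason would also appear as 0.

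Added over the 10 genes, interferon reads numbered 34, 40 and 38 in Adar KO libraries with IFNb, 1, 1 and 3 in Adar KO libraries with vehicle, 0, 3 and 2 in control libraries with IFNb and 0 in each control library with vehicle. Ifnb1 made up 97 of the 112 counts of Adar KO cells with IFNb, or 86.6% (exact binomial interval 78.9% to 92.3%). Over all 19 interferon genes of the table it made up 79.5% of 122 counts (71.3% to 86.3%). Without Ifnb1, the other 9 genes held 4, 7 and 4 counts in Adar KO libraries with IFNb, against the same 1, 1 and 3 in Adar KO libraries with vehicle and 0, 3 and 2 in control libraries with IFNb. These 15, 5 and 5 counts have intervals of 8.40 to 24.7, 1.62 to 11.7 and 1.62 to 11.7, and most of the 15 are those of Ifna4. The difference of the 9 genes was 0.533 CPM against Adar KO cells with vehicle and 0.568 CPM against control cells with IFNb (exact permutation p = 0.1 each, the smallest value possible here).

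Apart from Ifnk, the type I genes lie together on chromosome 4. Ifna2 (88682881 to 88683912, minus strand), Ifna5 (88835525 to 88836094, plus), Ifna4 (88841861 to 88842421, plus), Ifna1 (88850087 to 88850656, plus) and Ifne (88879538 to 88880201, minus) follow Ifnb1 in that order. Ifna4 lies 319087 bases from the start of Ifnb1 and Ifna13 lies 121685 bases from it, and interferon genes at 0 lie between them. The other genes around the cluster did not share the pattern of Ifnb1. Klhl9, which lies within the cluster, was counted at 205 ± 4.98 CPM in Adar KO cells with IFNb and 217 ± 5.20 CPM in control cells with IFNb (log2 fold change -0.08 ± 0.05 SE, adjusted p = 0.114).

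Mtap, the methylthioadenosine phosphorylase gene beside the cluster, was counted at 77.6 ± 3.51 CPM in Adar KO cells with IFNb and 229 ± 14 CPM in control cells with IFNb (log2 fold change -1.56 ± 0.05, adjusted p = 5.35e-53). Ptplad2 also fell (-1.43 ± 0.30, adjusted p = 5.19e-06), to 1.97 ± 0.120 CPM in Adar KO cells with IFNb against 5.36 ± 0.514 CPM in control cells with IFNb. Mllt3 did not pass the test (0.13 ± 0.07, adjusted p = 0.113), but did without replicate 3 of the Adar KO cells with IFNb (adjusted p = 0.0251) and with upper-quartile scaling (0.0375). Cdkn2a, Cdkn2b and Dmrta1 were at 0 in all 12 libraries. Of the 7 neighbours, 4 were tested, and 0 were higher and 2 lower in Adar KO cells with IFNb than in control cells with IFNb. Over all genes tested 36.4% were higher and 36.2% lower.

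**Figure D2:**
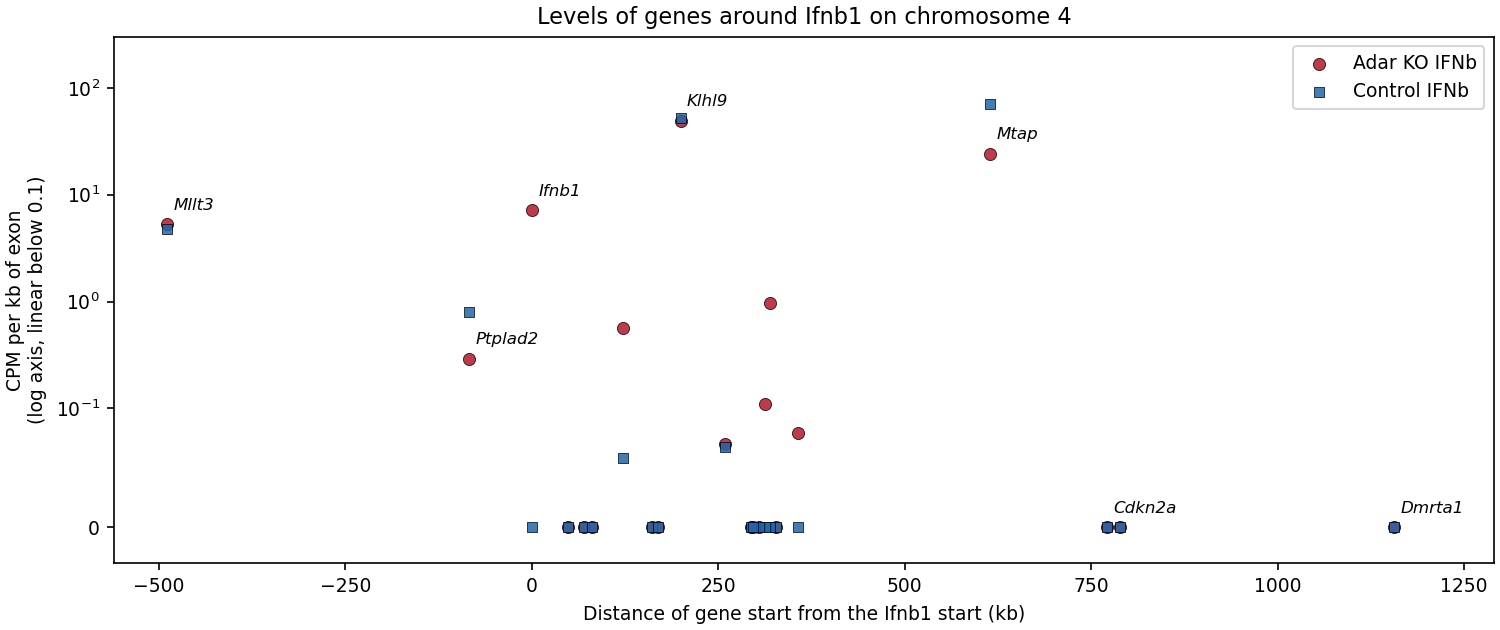
Mean levels (CPM per kilobase of exon, log axis that is linear below 0.1) of the interferon genes and their neighbours on chromosome 4, by distance in kilobases from the start of Ifnb1; red circles are Adar KO cells with IFNb and blue squares control cells with IFNb. Ifnb1 (7.12), Ifna4 (0.972) and Ifna13 (0.559) stand among interferon genes at or near 0, and Mtap lies lower in Adar KO cells with IFNb.

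Genes with the pattern of Ifnb1 were few. Of the 10896 genes with at least 10 counts in each Adar KO library with IFNb, 6 (0.0551%) were at 0 in all 9 other libraries, so that 100% of their summed CPM lay in that group. Ifnb1 was second of the 6 by summed count. The first was Hist1h2aa, a histone H2A gene, with 29, 43 and 30 counts in Adar KO libraries with IFNb. The third was Il6, which encodes the inflammatory cytokine interleukin 6, with 20, 31 and 30 counts. Gm12794 had 21, 25 and 14 counts, Dtx1, a regulator of Notch signalling, had 12, 19 and 15, and Dub1, a deubiquitinase gene, had 13, 18 and 13. With these 6 included, 27 genes had at least 90% of their summed CPM there. The likeness was taken over 12 libraries and is fixed by the rule that selected the genes.

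Il6, like Ifnb1 a target of NF-kB, was at 4.40 ± 0.530 CPM in Adar KO cells with IFNb. This mean was 27.4-fold above the floor of Adar KO cells with vehicle and 27.9-fold above that of control cells with IFNb. Since Il6 is listed here for being at 0 in the 9 other libraries, these values are a description.

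**Figure D3:**
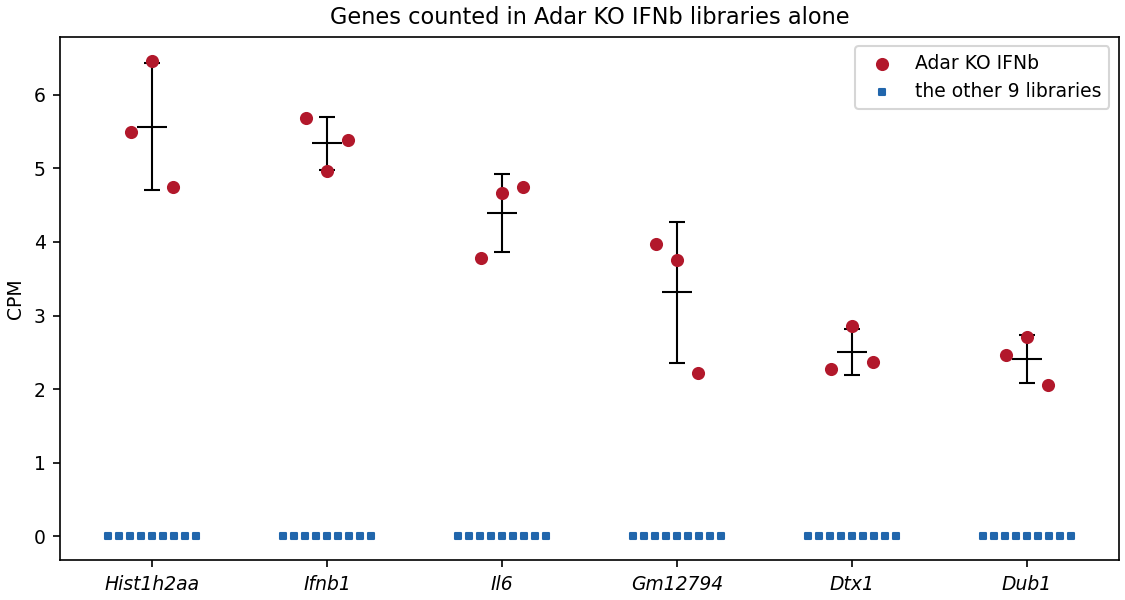
Normalised counts (CPM) of the 6 genes that were at 0 in the 9 other libraries and had at least 10 counts in each Adar KO library with IFNb; red circles are Adar KO libraries with IFNb with their mean and SD, and blue squares the 9 other libraries. The means run from 5.57 CPM for Hist1h2aa and 5.34 CPM for Ifnb1 to 2.41 CPM for Dub1, and the 9 other libraries are at 0 for each gene.

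The genes of the pathway that leads to Ifnb1 were read from lists of sensors, kinases, promoter-binding factors, inhibitors and targets. In the comparison of Adar KO cells with IFNb and control cells with IFNb, 36.4% of all genes tested were higher and 36.2% lower, with a median log2 fold change of 0.02, and the lists stand beside these values. Of 11 tested sensors and adaptors 7 were higher, 3 lower and 1 was not called, with a median of 0.51. Ifih1, which encodes the long double-stranded RNA sensor MDA5, was at 351 ± 11.3 CPM in Adar KO cells with IFNb and 177 ± 3.65 CPM in control cells with IFNb (0.99 ± 0.04, adjusted p = 8.13e-42). Ddx58, which encodes RIG-I, was at 651 ± 21.0 and 454 ± 4.18 CPM in the same order (0.52 ± 0.04, adjusted p = 7.21e-21). Dhx58, which encodes their relative LGP2, was 0.69 ± 0.05 higher, and Myd88, the Toll-like receptor adaptor, 1.34 ± 0.11 higher.

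Mavs, the adaptor that RIG-I and MDA5 share, was at 36.8 ± 4.52 CPM in Adar KO cells with IFNb and 42.1 ± 1.42 CPM in control cells with IFNb. This small difference (-0.19 ± 0.09, adjusted p = 0.0474) was not called with 4 other settings, among them the DESeq2 Wald test (adjusted p = 0.13), nor without any of 4 single libraries. Without these libraries, replicates 1 and 3 of both groups, the adjusted p was 0.0874 to 0.215. Without added IFNb, Ifih1 was at 3.80 ± 1.53 CPM and Ddx58 at 4.67 ± 1.33 CPM in Adar KO cells with vehicle, and neither differed from control cells with vehicle by the test (adjusted p = 0.661 and 0.788). In that comparison 6.51% of all genes tested were called, and of the 11 sensors and adaptors 1 was, Trim25, lower in Adar KO cells.

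Of 12 kinases and adaptors between the sensors and the transcription factors, 8 were higher in Adar KO cells with IFNb than in control cells with IFNb, 2 were lower and 2 were not called (median 0.45). Traf2, which encodes an adaptor ubiquitin ligase of TNF receptor signalling, was at 49.3 ± 3.27 CPM in Adar KO cells with IFNb and 20.6 ± 0.746 CPM in control cells with IFNb (1.26 ± 0.10). Tbkbp1, a binding partner of TBK1, was 0.90 ± 0.10 higher, and Traf6, another ubiquitin ligase of the pathway, 0.59 ± 0.06 higher. None of the 12 was called between the genotypes under vehicle.

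The factors that bind the Ifnb1 promoter were called in all 11 tested cases, with 9 higher and 2 lower in Adar KO cells with IFNb than in control cells with IFNb (median 0.63). Irf3, the factor that starts Ifnb1 transcription once it is phosphorylated, was at 34.7 ± 1.32 CPM in Adar KO cells with IFNb and 26.0 ± 3.19 CPM in control cells with IFNb (0.40 ± 0.10, adjusted p = 0.000208). Jun was at 235 ± 6.54 CPM in Adar KO cells with IFNb and 102 ± 6.0 CPM in control cells with IFNb (1.20 ± 0.05). Irf5 was 1.84 ± 0.29 higher.

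Irf7, which drives most IFN-alpha genes, was at 108 ± 6.31 CPM in Adar KO cells with IFNb and 135 ± 2.24 CPM in control cells with IFNb, lower by the test (log2 fold change -0.33 ± 0.06, adjusted p = 1.91e-07). In vehicle it was at 0.637 ± 0.0883 CPM in Adar KO cells and 0.339 ± 0.278 CPM in control cells. The other factor that was lower was Hmga1, an architectural DNA-binding protein (-1.69 ± 0.34), with 28 counts in Adar KO cells with IFNb and 95 in control cells with IFNb.

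Inhibitors of interferon induction were higher in 10 of 11 tested cases in Adar KO cells with IFNb than in control cells with IFNb, and the remaining gene, Adar, was not called (median 0.54). Adar (0.09 ± 0.05, adjusted p = 0.0817) was called without replicate 3 of the Adar KO cells with IFNb (adjusted p = 0.03), with upper-quartile scaling (0.00996) and with limma-voom (0.0498). Tnfaip3, which encodes the NF-kB inhibitor A20, was at 9.52 ± 2.64 CPM in Adar KO cells with IFNb and 1.35 ± 0.191 CPM in control cells with IFNb (2.78 ± 0.34). Trex1, a DNA exonuclease that limits interferon induction by DNA, was at 106 ± 9.72 CPM in Adar KO cells with IFNb and 22.6 ± 1.69 CPM in control cells with IFNb (2.23 ± 0.09). Nfkbia, which encodes the inhibitor IkB-alpha and is itself a target of NF-kB, was 1.57 ± 0.16 higher. In control cells, IFNb was followed by 3 calls upward and 2 downward among the 11, beside 26.5% of all genes called in each direction. With library size alone as scaling, 2469 genes were called upward and 3796 downward in that comparison, against 3067 and 3066 with TMM.

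Genes listed as targets of the same factors as Ifnb1 were higher in Adar KO cells with IFNb than in control cells with IFNb in all 10 tested cases of 20, with a median of 1.79. Il6 and Cxcl11 among them entered the test only through the group with the high counts. The largest difference after Il6 was that of Ccl5, which encodes the T cell attractant RANTES, at 265 ± 2.78 CPM in Adar KO cells with IFNb and 4.54 ± 1.14 CPM in control cells with IFNb (5.88 ± 0.16, adjusted p = 4.44e-87). Cxcl11, another T cell attractant, was 3.19 ± 0.41 higher. All 10 were also higher than in Adar KO cells with vehicle, while in control cells 9 of the 10 were higher with IFNb than with vehicle, Il6 being at 0. The median log2 fold change of the 10 in control cells was 5.42, while Ifnb1 was at 0 there. Of all genes tested 26.5% were higher in that comparison. A place on this list therefore does not show that a gene is induced together with Ifnb1. The call of Cxcl11 in control cells ended without replicate 1 of the control cells with IFNb (adjusted p = 0.0933). Of the 10 genes not tested, Tnf had 15 counts and Ccl4 had 9 in Adar KO cells with IFNb, and both were at 0 in the other 3 groups. They were singled out after their values were seen. Il1b, Cxcl2 and Ccl20 had 1, 2 and 1 counts, in Adar KO cells with IFNb alone. Icam1 had 3 counts in Adar KO cells with IFNb and 5 with vehicle, and in control cells 7 with IFNb and 3 with vehicle. In the same order Il15 had 27, 11, 17 and 22 counts and Cxcl1 had 15, 4, 0 and 0. Ccl2 and Il12a were at 0 in every group.

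Of 5 tested receptor genes 2 were lower in Adar KO cells with IFNb than in control cells with IFNb and 3 were not called (median -0.13), a share close to the 36.2% of all genes tested that were lower. Il10rb, a chain of the type III interferon receptor that other cytokine receptors share, was at 37.4 ± 4.48 CPM in Adar KO cells with IFNb and 101 ± 8.79 CPM in control cells with IFNb (-1.43 ± 0.08, adjusted p = 3.94e-34). Ifnar1, a chain of the type I receptor, was at 70.0 ± 5.17 CPM in Adar KO cells with IFNb and 101 ± 3.51 CPM in control cells with IFNb (-0.54 ± 0.06, adjusted p = 2.56e-13). Ifnar2, its partner chain, was at 31.8 ± 2.38 and 33.7 ± 1.81 CPM in the same order and was not called (-0.08 ± 0.09, adjusted p = 0.449). Il28ra, the chain specific to type III interferons, had 10 counts in Adar KO cells with IFNb, 4 in Adar KO cells with vehicle, 13 in control cells with IFNb and 8 in control cells with vehicle, too few for the test.

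Of the 9 genes of type I receptor signalling, 6 were higher in Adar KO cells with IFNb than in control cells with IFNb, 2 lower and 1 was not called (median 0.63). Isg15 is counted both in this list and in that of the targets. Stat2, a subunit of the transcription factor ISGF3, was 1.45 ± 0.05 higher and Usp18, an inhibitor of the type I receptor, 1.24 ± 0.04 higher. Socs3, an inhibitor of cytokine receptor signalling, was at 4.43 ± 1.46 CPM in Adar KO cells with IFNb and 10.3 ± 0.930 CPM in control cells with IFNb (-1.21 ± 0.21).

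**Figure D4:**
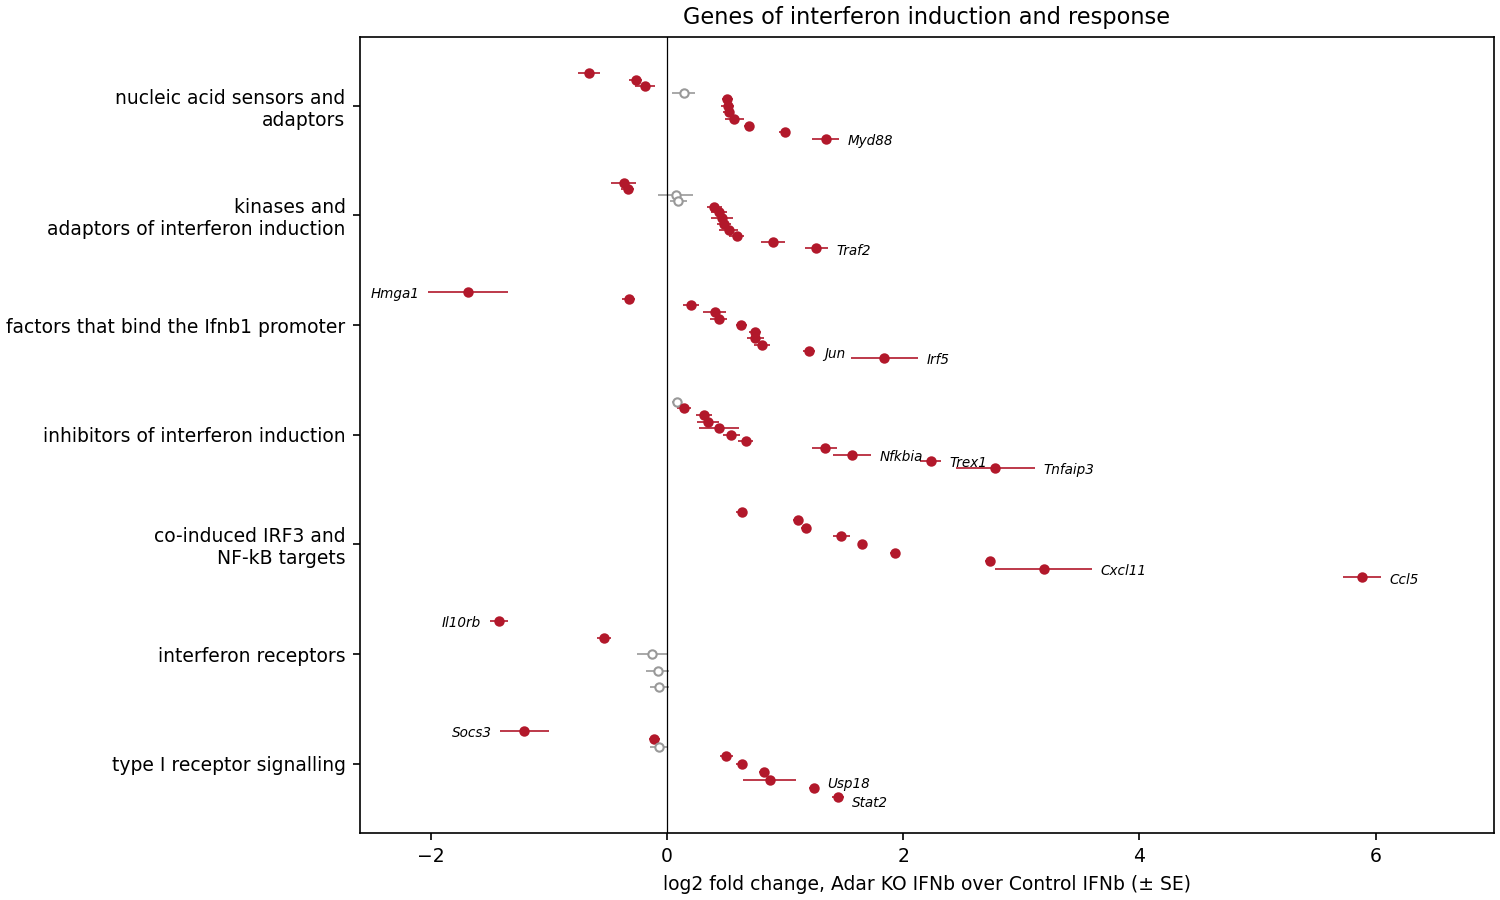
Log2 fold change of the tested genes of each list in Adar KO cells with IFNb over control cells with IFNb; bars are SE, red filled points were called at an adjusted p under 0.05 and grey open points were not. Inhibitors and the genes listed as co-induced targets lie on the positive side, both called receptors on the negative side, and Il6 is left out because control cells with IFNb are at 0.

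Of the interferon genes only Ifnb1 was tested. It was at 0 in Adar KO cells with vehicle and in control cells with vehicle, so that it could not be called between them. No tested gene of the kinase, target, receptor or receptor signalling lists was called between these 2 groups in the edgeR test. The 3 called genes of the sensor, factor and inhibitor lists, Trim25, Jun and Adar itself, were all lower in Adar KO cells. Over all genes tested, 2.47% were higher and 4.05% lower in that comparison. Under IFNb the same genotypes differed in Ifnb1, with 30 to 34 counts in each Adar KO library and 0 in each control library.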

How the data were processed

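Directional, ribosomal RNA-depleted libraries were sequenced from both ends with 37-base reads, per the labels' protocols. The submitters' processing notes name the mm10 build, Bowtie2 2.2.4 with Trimmomatic 0.33, HTSeq 0.6.1p1, bcl2fastq 2.19.1 and DESeq2. The authors deposited raw counts of reads per gene symbol, not normalised. Not given in the sources used here are the annotation, the strand setting and the handling of reads that match several genes. An interferon-gamma arm was not analysed here. Between 21.1% and 28.5% of each library was Rn45s, a ribosomal precursor, and replicates differed beyond sampling noise.

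From the deposited counts, filterByExpr left 11561 genes. edgeR 4.0.16 (R 4.3.3; TMM; quasi-likelihood test, robust) was fitted over 12 libraries with 1 term per group, and calls needed a Benjamini-Hochberg adjusted p under 0.05. Errors of log2 fold changes are standard errors, not below counting error. Single low genes and sums were compared by two-sided exact permutation tests (scipy 1.17.1). Alternatives were other scalings, no filter, DESeq2 1.42.0, limma-voom (limma 3.58.1), a replicate block and leaving out libraries. The scripts were tested on simulated data. The members and the gene lists were chosen with earlier results of these data known. Genes named are the 3 called genes of each list with the largest change, the genes most like Ifnb1, and Irf3, Irf7, Mavs, Ddx58, Ifih1, Ifnar1, Ifnar2 and Adar. Positions are from GENCODE M21 and promoters from RefSeq, both GRCm38.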

Additional observations from a re-analysis of the deposited data

Results flagged for a closer look

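The response to IFNb differed between Adar KO cells and control cells (edgeR interaction, response of Adar KO cells minus response of control cells, log2, ± SE) for 20 of the genes chosen by the naming rule. This test called 59.3% of all genes tested, 28.6% higher and 30.7% lower. Most of the genes were named for their difference between the genotypes under IFNb, which is part of this contrast. Their calls are therefore a description and no independent support. Not called by edgeR were Dhx58, Irf3, Irf5, Irf7, Mavs, Il6, Cxcl11, Ifnar2, Ifngr1, Ifngr2, Klhl9 and Mllt3. The response was larger in Adar KO cells for the targets Ccl5 (5.91 ± 0.53), the inhibitors Trex1 (2.23 ± 0.20), Tnfaip3 (2.11 ± 0.54) and Nfkbia (1.66 ± 0.25), and the sensors and adaptors Myd88 (1.42 ± 0.23), Ifih1 (1.22 ± 0.24) and Ddx58 (0.67 ± 0.22). It was also larger for Jun (1.61 ± 0.09), Traf2 (1.41 ± 0.14), Usp18 (1.29 ± 0.42), Stat2 (1.01 ± 0.20), Tbkbp1 (0.76 ± 0.16), Traf6 (0.67 ± 0.09) and Adar (0.36 ± 0.08). It was lower in Adar KO cells for Hmga1 (-1.69 ± 0.44), Mtap (-1.50 ± 0.07), Il10rb (-1.45 ± 0.10), Ptplad2 (-1.41 ± 0.41), Socs3 (-1.36 ± 0.27) and Ifnar1 (-0.45 ± 0.09). Of the genes named beside them, Mob3b (-1.80 ± 0.27), Trim25 (0.63 ± 0.20), Pdgfrb (0.56 ± 0.25) and Samd4b (0.47 ± 0.08) were also called. Among the 20 calls, 2 rested on single libraries. That of Usp18 ended without replicate 3 of the control cells with vehicle (adjusted p = 0.132), and that of Ddx58 without replicate 3 of the Adar KO cells with vehicle (adjusted p = 0.0624).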

How the results depend on the processing

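Ifnb1 passed the test under all 21 alternatives of both comparisons, with adjusted p between 2.02e-22 and 6.58e-09 against Adar KO cells with vehicle and between 1.10e-22 and 5.57e-09 against control cells with IFNb. It entered these tests only through the group in which it was counted, so these values describe the calls and are no independent support. Its level was 7.04 CPM without Rn45s, since the totals then fall, against 5.34 CPM with it, and between 5.15 and 5.51 CPM with 1 library left out. The difference of the 9 other interferon genes lay between 0.414 and 0.660 CPM against Adar KO cells with vehicle with 1 library left out. The number of genes called between the genotypes under vehicle was 753, with 322 by DESeq2 and 308 to 801 with 1 library left out. It was 308 without replicate 2 of the control cells with vehicle, and 393 and 463 without replicates 1 and 2 of the Adar KO cells with vehicle. The cause was not tested. The other values that answer a comparison stayed within 1.5 times, and no called value changed sign; some fold changes near 0 that were not called did. Among single genes 32 alternatives ended a call and 17 added one. With library size alone, 3618 genes were higher and 4672 lower in Adar KO cells with IFNb than with vehicle, against 4232 and 4132 with TMM, and 2469 genes were higher and 3796 lower in control cells with IFNb than with vehicle, against 3067 and 3066 with TMM. With a replicate block the comparisons gave 8338, 8347, 6075, 711 and 6816 calls, against 8364, 8388, 6133, 753 and 6855 without it. Over the 18 same-numbered pairs the correlation was -0.10 to 0.06, and 2 of 12 libraries correlated best with their own number, so that the numbers were not taken to pair the libraries. At this depth, the floors of 3 counts lie at 0.157 to 0.173 CPM, and the 95% intervals of a group at 0 counts reach 0.19 to 0.21 CPM. Both hold only for reads that can be assigned to a gene. Single reads, such as those of Ifna5 and Ifne, gave means below these floors.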
